A study of Mus musculus with 31 samples.

Results

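Ion channel genes known mainly from nerve and muscle were followed through the chromatin accessibility of spleen regulatory T cells (Tregs) after IL-2 receptor stimulation. The members were the accessibility peaks whose deposited gene list holds a symbol that starts with Kcn (potassium channels and their partners), Cacn (voltage-gated calcium channels), Scn followed by a digit (voltage-gated sodium channels), Gria, Grin followed by 1 to 3 or Grik (AMPA, NMDA and kainate glutamate receptors) or Gabr (GABA-A receptors), without Kcnj15. The rule reads symbols only. They were 694 of the 104979 peaks and carried 133 of the 26157 gene symbols in the table. Of these symbols, 129 were channel genes and 4 were antisense RNA genes (Grin1os, Kcnq1ot1, Kcnmb4os2 and Kcnab3os). A further 6 peaks list Kcnj15 and were left out by that rule. Among the members, 211 overlapped another peak, and the 694 peaks merged into 510 regions, so that neighbouring members can hold the same reads.

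The cells were Tregs sorted from spleens of C57BL/6 mice that carry an RFP reporter at FoxP3, the transcription factor that defines Tregs, and every group shared this reporter. Mice had been injected with 5 µg of mIL-2 (mouse interleukin-2, called IL2 here), with 20 µg of the mIL-2/CD25 fusion protein (FP) or with 100 µL of PBS, the control. ATAC-seq, in which the transposase Tn5 cuts accessible DNA, gave 31 libraries: 3 IL2, 3 FP and 3 PBS libraries at each of 0.75 h and 16 h, 3 FP and 3 PBS libraries at 72 h, and 4 FP and 3 PBS libraries at 168 h. Each treated group was set against PBS of the same time, because each time point has its own date in the labels and time and date cannot be told apart. The labels do not say whether each library came from a separate mouse, so the p-values measure the spread between these samples, which may be technical. In bulk libraries, fewer cells with an accessible site and less access per cell cannot be told apart.

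Voltage-gated sodium channels open first in an action potential, potassium channels return the membrane to rest, and calcium channels turn depolarization into calcium entry. Glutamate receptors of the AMPA, NMDA and kainate types and GABA-A receptors carry fast excitation and inhibition at synapses. T cells do not fire action potentials, but they use a few members of these families: the potassium channels Kcna3 and Kcnn4 keep the membrane negative while calcium enters through Orai1. IL-2 acts through the transcription factor STAT5, which binds the palindrome TTCNNNGAA, and the repressor REST holds many neuronal genes silent outside the nervous system by binding the RE1 element. The comparison asked whether sites far from a transcription start, in genes of which most had no accessible start, responded to IL-2 receptor stimulation. RNA was not analysed here.

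Only 2 members passed the test with either agent at any time, both with IL2 at 0.75 h and both in introns, and the sequence of each holds 1 copy of TTCNNNGAA. These sequences are shown because they are the called sites. Each is a window of 300 bases that holds the motif, not the whole peak. The capitals mark the STAT motif, and the letters are the plus strand of GRCm38 from RefSeq's genome.
Cacna1e intron peak chr1:154791348-154791647: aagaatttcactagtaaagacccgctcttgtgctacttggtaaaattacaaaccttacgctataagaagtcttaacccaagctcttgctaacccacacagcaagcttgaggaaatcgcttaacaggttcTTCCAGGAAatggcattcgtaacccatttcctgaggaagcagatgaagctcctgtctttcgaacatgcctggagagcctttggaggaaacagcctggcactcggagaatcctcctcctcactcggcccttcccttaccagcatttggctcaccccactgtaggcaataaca
Kcnq5 intron peak chr1:21411324-21411623: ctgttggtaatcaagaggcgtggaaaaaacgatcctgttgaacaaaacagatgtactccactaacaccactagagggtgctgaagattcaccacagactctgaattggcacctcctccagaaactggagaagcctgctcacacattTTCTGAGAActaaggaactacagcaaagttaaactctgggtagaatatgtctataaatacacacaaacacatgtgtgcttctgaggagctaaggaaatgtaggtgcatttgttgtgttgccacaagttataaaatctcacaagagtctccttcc
Other distal members hold the same kind of motif at a higher level of accessibility and were not called. The most accessible of them in PBS libraries are shown for contrast, with the Kcnq5 site first because its 9 motif letters are those of the called Kcnq5 peak.
Kcnq5 intron site, not called chr1:21830091-21830151: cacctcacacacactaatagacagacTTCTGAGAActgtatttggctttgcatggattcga
Cacna1e intron site, not called chr1:154786344-154786404: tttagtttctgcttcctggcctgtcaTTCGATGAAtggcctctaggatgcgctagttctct
Kcnip1 site, not called chr11:33939392-33939452: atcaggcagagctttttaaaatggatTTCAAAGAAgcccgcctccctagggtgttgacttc
Kcnh2 site, not called chr5:24348442-24348502: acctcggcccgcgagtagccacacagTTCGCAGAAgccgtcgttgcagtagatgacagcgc
The last sequence is the only member with the RE1 core, searched as CAGCACC and GGACAG with 2 bases between them on either strand; capitals mark it.
Kcnh2 RE1 core chr5:24357590-24357650: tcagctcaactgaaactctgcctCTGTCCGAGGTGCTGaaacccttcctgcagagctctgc

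Most members lay inside long genes and away from any start. By the deposited classes, 354 members were intronic (51.0%, against 31.9% of all peaks), 142 were promoter peaks (20.5%, against 28.0%), 128 were intergenic (18.4%, against 30.7%), 39 were at a 3' end and 31 were exonic. By GENCODE M21, the median length of the genes was 87.1 kb, and 556 members (80.1%, against 70.8% of all peaks) were distal, meaning more than 1 kb from every annotated start. Kcnq5, a potassium channel of the M-current type, had the most peaks, with 50 in 28 regions. It was followed by the L-type calcium channel gene Cacna1d with 25 peaks in 18 regions and by Cacnb4, a calcium channel beta subunit, with 22 in 14 regions. Kcng3, a modifying potassium channel subunit, and the kainate receptor subunit Grik4 had 19 peaks each, in 7 and 6 regions. At the other end, 30 genes had 1 peak each, while the 19 genes with 10 or more peaks held 331 of the members.

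The families differed in how many genes were accessible at their own start. A peak within 1 kb of the own start was present for 54 of the 129 genes: 30 of 72 potassium channel genes, 11 of 19 calcium channel genes, 7 of 13 sodium channel genes, 2 of 13 GABA-A genes, 2 of 6 NMDA genes (Grin1 and Grin2d), 1 of 3 AMPA genes (Gria3) and 1 of 3 kainate genes (Grik4). The GABA-A family was the most distal, with 57 of its 59 peaks away from any start. A further 20 members lay within 1 kb of a start that belongs to another gene only, such as Dcp1a for a peak that lists Cacna1d and Dcp1b for one that lists Cacna1c. Those peaks carry the start of a gene for an mRNA decapping factor.

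Levels in the 12 PBS libraries are given in CPM, the counts in a peak scaled to the library total, or as CPM per kilobase of peak where peaks are compared. Distal members had a median of 5.55 CPM per kb, against 6.05 for all distal peaks. Members within 1 kb of a start had 6.48 CPM per kb, against 11.1 for all such peaks, and only 13 of the 54 genes with a peak at their own start lay above that median. The most accessible start was that of Kcnab2, a beta subunit of voltage-gated potassium channels, at 47.9 ± 8.27 CPM (SD, n = 12), although its peak also lists Nphp4. The start of Kcnq5 followed at 35.0 ± 10.3 CPM, then Scn2a, a sodium channel of neuronal axons, at 17.9 ± 7.31 CPM. Kcnn4, the calcium-activated potassium channel of lymphocytes, had 15.02 ± 3.53 CPM. Per kilobase these 4 peaks stood at 44.7, 33.8, 22.6 and 19.0 CPM, all above the median of start peaks.

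**Figure D1:**
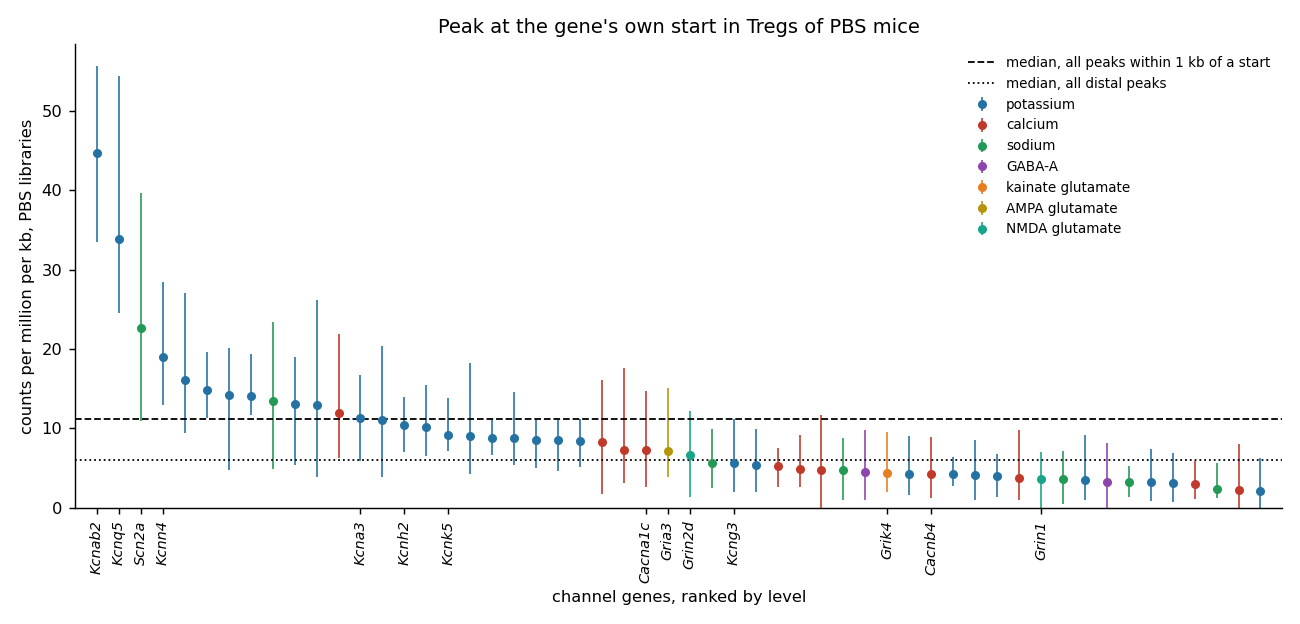
Accessibility at the own start of 54 channel genes in PBS libraries, in CPM per kb of peak on a linear axis from 0, with genes ranked by level and a few of those described named; points are means of 12 PBS libraries and bars run from the lowest to the highest library. The dashed line is the median of all peaks within 1 kb of a start (11.1 CPM per kb) and the dotted line that of all distal peaks (6.05 CPM per kb), and 13 genes lie above the dashed line.

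Shares of peaks with STAT and AP-1 motifs are given with no test. TTCNNNGAA was present in 65 members (9.37%, against 13.3% of all peaks), in 56 of the 556 distal members (10.1%, against 13.7% of distal peaks) and in 6.52% of members within 1 kb of a start, against 12.5% of all such peaks. The AP-1 motif TGANTCA was present in 81 members (11.7%, against 13.2%), in 11.9% of distal members, against 14.4%, and in 10.9% of members within 1 kb of a start, against 10.4%. Distal members were shorter than distal peaks in general, with median widths of 269 and 329 bp, which bears on any count of motifs per peak. The RE1 core was present in 1 member, an intergenic peak of Kcnh2, and in 46 peaks (0.0438%) of the whole table. Of the 65 members with TTCNNNGAA, 15 belonged to Kcnq5, and 10 of these lay in a single region of overlapping peaks. These are letters in the reference sequence within the peak borders and say nothing of which factor was bound.

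The libraries held 7.39 M to 59.6 M counts in peaks (M, 1e+06 counts), and members made up 0.153% to 0.239% of them. At 168 h, PBS library 1 (7.39 M counts) and FP library 2 (12.3 M) stood apart. They had the lowest mean correlations of log2 counts with all other libraries (0.737 and 0.772). These means run over libraries of every time, not of 168 h alone. Of the Treg genes, Ctla4, Ikzf2, Foxp3 and Il2ra had start peaks at 32.9, 20.3, 16.5 and 15.1 CPM per kb in PBS libraries, while Tnfrsf18 stood at 9.76, below the median of 11.1 of all peaks near a start. The CD8 T cell gene Cd8b1 stood at 16.8 CPM per kb, about the level of Foxp3, while Cd8a, the other CD8 gene listed, had 1 peak and no start peak. The general T cell genes Cd3e, Cd4, Cd5, Lck and Cd3d stood at 7.56, 7.65, 10.0, 11.8 and 12.0 CPM per kb, and the start peaks of 7 B cell, myeloid, erythroid and NK cell markers at 3.65 to 10.9, a range that holds 3 of these 5. The neuronal genes Syn1 and Syt1 had start peaks at 7.58 and 2.55 CPM per kb, that of Syn1 about the level of Cd3e and Cd4. The B cell genes Ms4a1 and Cd79b, the myeloid gene Csf1r and the neuronal genes Snap25, Stmn2 and Nefl had no peak. The 18 peaks of the other 5 of 8 neuronal markers summed to 35.0 to 44.6 CPM with IL2, 31.9 to 40.9 CPM with FP and 29.5 to 37.0 CPM in PBS libraries at 0.75 h, so the groups overlapped.

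Both rises with IL2 at 0.75 h were in genes of voltage-gated channels. The first is an intron peak of Cacna1e, which encodes the pore of the R-type calcium channel of neurons. It spans chr1:154791348-154791816, 25359 bp from the nearest annotated start, which is one inside Cacna1e, and 92.9 kb from the outer start of that gene, which had no peak at a start of its own. It had 6.87, 7.18 and 10.7 CPM in IL2 libraries, 6.01, 5.08 and 3.08 CPM in FP libraries and 1.91, 2.22 and 3.21 CPM in PBS libraries. Every IL2 library was above every PBS library, and the lowest FP library lay within the PBS range. The means were 8.25 ± 2.12 CPM with IL2 and 2.45 ± 0.677 CPM with PBS (SD, n = 3 each). The log2 fold change was 1.75 ± 0.36 (SE; 95% interval 1.00 to 2.51), with an adjusted p of 0.0293 in edgeR's quasi-likelihood test over all peaks.

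The second is an intron peak of Kcnq5 at chr1:21411121-21411891. It lies 20600 bp from the nearest start and 550.4 kb from the start of Kcnq5, near the far end of a gene 563.5 kb long. It had 13.5, 11.1 and 12.1 CPM in IL2 libraries, 9.65, 10.0 and 10.6 CPM in FP libraries and 5.55, 5.78 and 4.84 CPM in PBS libraries, and the 3 groups did not overlap. The means were 12.2 ± 1.22 CPM with IL2 and 5.39 ± 0.492 CPM with PBS (SD, n = 3 each). The log2 fold change of IL2 over PBS was 1.18 ± 0.25 (SE; 95% interval 0.66 to 1.70), with an adjusted p of 0.0344 in edgeR. Each of the 2 calls was lost, at an adjusted p above 0.05, when any 1 of the 3 IL2 or 3 PBS libraries was left out, or when the log2 library total entered as a covariate.

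These 2 rises were 0.313% of the 639 members tested, against 0.488% of all tested peaks that rose, and no member fell, against 0.00896% of all peaks. An unadjusted p under 0.05 was found for 29 members (4.54%), of which 9 were higher and 20 lower with IL2, against 5.74% of all peaks. That count moved with single libraries: it was 60 without PBS library 2 (9.19%, against 7.37% of all peaks), 49 without IL2 library 2 (7.5%, against 6.56%), 44 without IL2 library 3 (6.79%, against 5.69%) and 18 without IL2 library 1 (2.74%, against 5.17%). DESeq2 called 2 members higher and 0 lower, against 1.05% of all peaks called by it. All IL2 libraries were above all PBS libraries at 16 members (2.50%, against 6.37% of all peaks) and below them at 25 members (3.91%, against 5.07%). Over the members tested the median log2 fold change was -0.10, against -0.02 over all peaks.

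**Figure D2:**
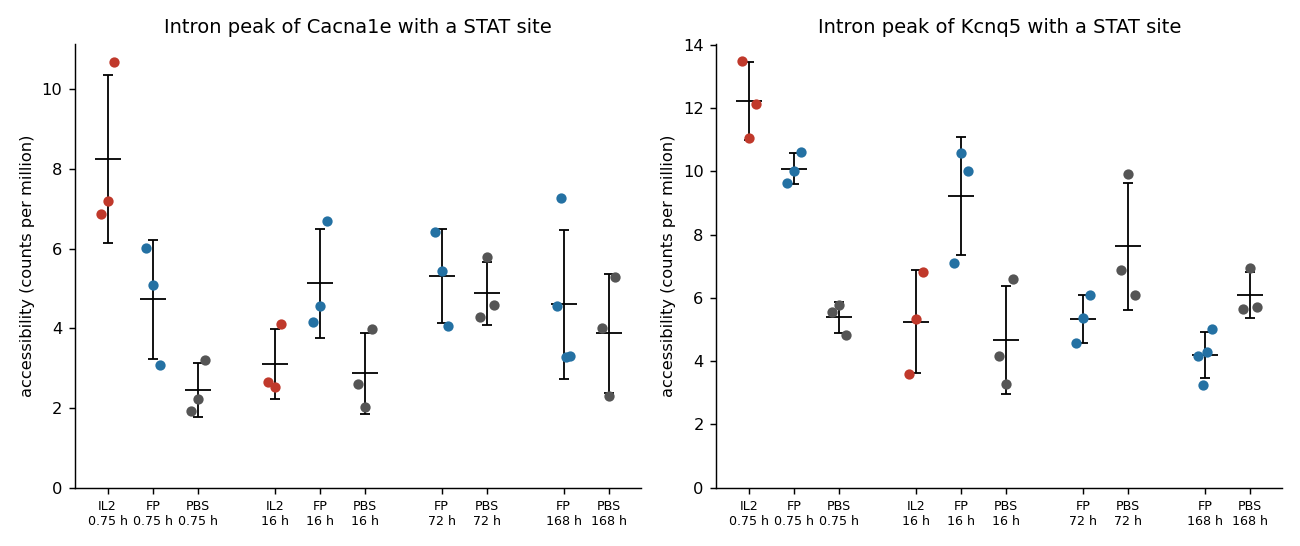
CPM of the Cacna1e peak and the Kcnq5 peak in every library, by time after injection; points are libraries, bars the mean and whiskers the SD, with IL2 and FP left of PBS. At 0.75 h the IL2 libraries of the Cacna1e peak (6.87 to 10.7 CPM) lie above the PBS libraries (1.91 to 3.21 CPM), and the FP libraries of the Kcnq5 peak lie above PBS at 0.75 h and 16 h.

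Distal members with the STAT motif lay on both sides of 0. Among distal members, 2 of 502 tested rose with IL2 at 0.75 h, against 0.63% of all distal peaks, and both were among the 56 with TTCNNNGAA, where 3.76% of all distal peaks with the motif rose. The median log2 fold change of these 56 was -0.14, and 22 of them were above 0, while all distal peaks with the motif had a median of 0.21. Of the 56, 10 are peaks of a single merged Kcnq5 region and can hold the same reads. With overlapping peaks counted once, a choice made after seeing the data, the members' median was 0.05 over 44 regions, 22 above 0 and 22 below, against 0.22 over all distal regions with the motif. Without the motif, the median was -0.10 for 446 distal members and -0.05 for all such distal peaks. The 95% interval of the fold change, not adjusted for the number of peaks, stayed below a log2 fold change of 1 for 33 of the 56. A peak at the 3' end of Kcnip4, a potassium channel interacting protein, had the highest value of the 56, at 2.39 ± 1.25 (SE), on 0.0804, 0.476 and 1.25 CPM with IL2 against 0.23, 0 and 0.093 CPM with PBS, and the groups overlapped.

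**Figure D3:**
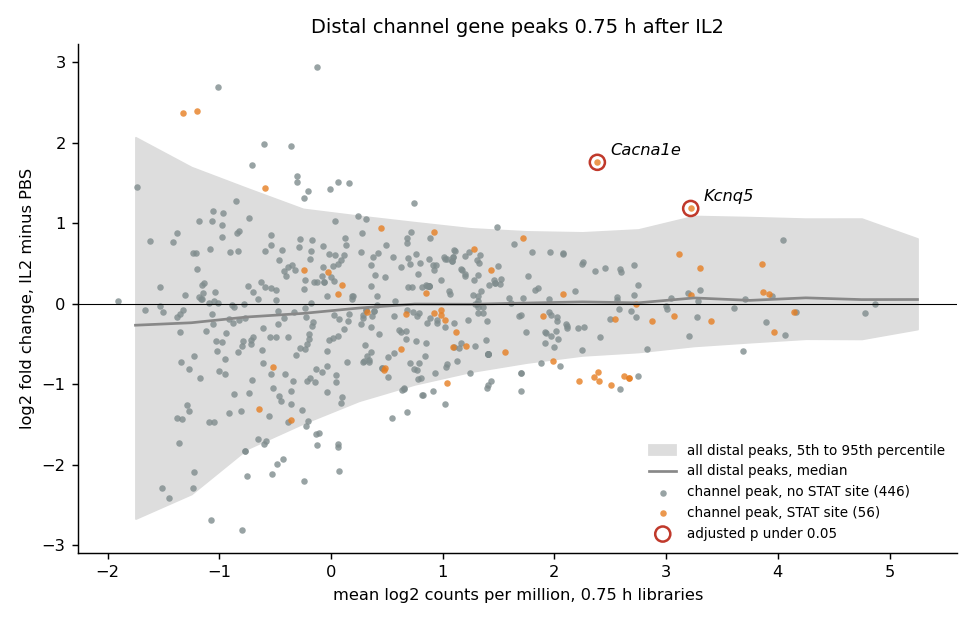
Log2 fold change of IL2 over PBS at 0.75 h against mean log2 CPM for distal members, 446 without and 56 with TTCNNNGAA; the grey band runs from the 5th to the 95th percentile of all distal peaks, the line is their median, and circles mark the Cacna1e and Kcnq5 calls. Most members with the motif lie within the band.

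The motif sites printed for contrast had levels at least as high as the called peaks in PBS libraries and showed no call. The other Kcnq5 site with the same 9 letters had 10.5, 15.9 and 14.02 CPM with IL2, against 19.2, 13.9 and 18.8 CPM with PBS at 0.75 h, and its log2 fold change was -0.36 ± 0.24 (SE). The neighbouring Cacna1e site, 98.1 kb from the gene start, had 12.3, 6.51 and 13.5 CPM with IL2, against 7.81, 7.22 and 8.7 CPM with PBS, at 0.44 ± 0.29. Values for the Kcnip1 and Kcnh2 sites were -0.11 ± 0.24 and 0.12 ± 0.24, and for the Kcnh2 peak with the RE1 core 0.29 ± 0.55. The IL2 and PBS libraries overlapped at the Kcnq5 and Cacna1e sites.

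Of the called sites, 1 lay in a gene with an accessible start and 1 in a gene without. Only genes with distal members are counted here. The 41 such genes with a peak at their own start had 212 distal peaks tested at 0.75 h. They gave 1 rise (Kcnq5) and a median log2 fold change of 0.06 with IL2. The 74 such genes without a peak at their own start had 290, with 1 rise (Cacna1e) and a median of -0.17. In PBS libraries the distal peaks stood at a median of 6.29 CPM per kb in genes with a peak at their start and 5.23 CPM per kb in genes without.

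In each of the 2 genes a single peak passed the test. In Kcnq5, 13 overlapping peaks about 181 kb from the start, 10 of them with TTCNNNGAA, ran from -1.34 to -0.44 in log2 fold change with IL2 at 0.75 h, with a lowest adjusted p of 0.542 in edgeR. A block of 11 overlapping peaks 500.4 to 500.9 kb from the start ran from 0.29 to 0.74, and the peak at the start itself stood at -0.16. In Cacna1e, the peak next to the called one, 92.2 kb from the start, stood at -0.28. A block of 4 peaks at 89.7 to 89.8 kb ran from 0.20 to 0.56, and a block of 5 at 29.7 to 29.9 kb from 0.65 to 0.89. No peak of either gene other than the called ones passed the test in edgeR.

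**Figure D4:**
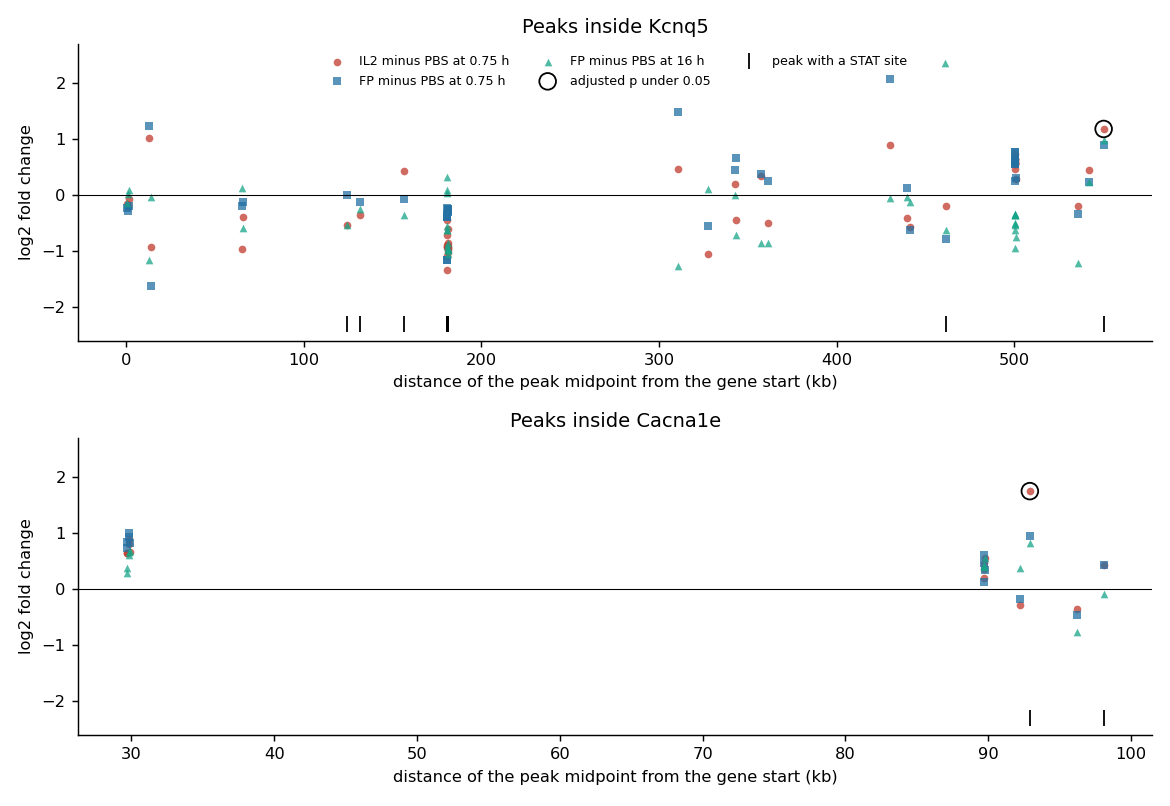
Log2 fold change over PBS of the peaks within Kcnq5 and Cacna1e against distance from the gene start in kb, for IL2 at 0.75 h, FP at 0.75 h and FP at 16 h; ticks mark peaks with TTCNNNGAA and circles the calls. The Kcnq5 call lies 550.4 kb and the Cacna1e call 92.9 kb from the start. With IL2 at 0.75 h, 19 of 48 tested peaks of Kcnq5 and 11 of 13 of Cacna1e were above 0, the calls included. Many of those above 0 lie in blocks of overlapping peaks that can hold the same reads. The 50 peaks of Kcnq5 merge into 28 regions and the 15 of Cacna1e into 8. The Kcnq5 count includes an intergenic peak near its start, at -0.12, which is not drawn.

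Other members with the lowest p with IL2 at 0.75 h are given as values. In this and the later comparisons, peaks picked for a low p tend to have groups that do not overlap. A lack of overlap at such peaks is therefore no further support for a change. An exon peak of Scn4a, the sodium channel of skeletal muscle, had 2.25, 1.27 and 0.455 CPM with IL2, against 0, 0.289 and 0.233 CPM with PBS (log2 fold change 2.94 ± 0.94, adjusted p 0.353 in edgeR). Another intron peak of Kcnq5, 327.6 kb from the start, had 3.46, 3.41 and 4.96 CPM with IL2, against 7.74, 7.37 and 9.58 CPM with PBS (-1.06 ± 0.34, adjusted p 0.365). In both the groups did not overlap. An intron peak of Kcnt2, a sodium-activated potassium channel, had 0.161, 0.278 and 0.265 CPM with IL2, against 1.95, 0.482 and 0.837 CPM with PBS (-2.20 ± 0.78, adjusted p 0.509), again without overlap.

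With FP at 0.75 h no member passed the test (0 rises and 0 falls in edgeR, against 0.00199% of all peaks that rose and 0% that fell). FP and IL2 were set against the same 3 PBS libraries, so the values of the agents are not independent. An unadjusted p under 0.05 was found for 11 members (1.72%, against 3.15% of all peaks), 7 higher and 4 lower, and DESeq2 called 0 members, against 0.207% of all peaks. Without FP library 2, PBS library 2 or PBS library 3 there were 17, 21 and 20 such members (2.60%, 3.22% and 3.08%, against 3.42%, 4.76% and 3.08% of all peaks). The Kcnq5 peak that rose with IL2 stood at 0.90 ± 0.25 (SE; 95% interval 0.39 to 1.42) with an adjusted p of 0.599, and the Cacna1e peak at 0.96 ± 0.35 (0.21 to 1.70) with an adjusted p of 1.0. A Kcnq5 intron peak with TTCNNNGAA, 461.9 kb from the start, had 3.19, 4.27 and 4.75 CPM with FP, against 8.16, 6.41 and 6.51 CPM with PBS, without overlap (-0.79 ± 0.30). An intron peak of the kainate receptor gene Grik2, also with the motif, had 1.23, 1.17 and 1.5 CPM with FP, against 1.8, 4.29 and 2.37 CPM with PBS (-1.11 ± 0.45). The Scn4a exon peak had 0.811, 1.05 and 1.16 CPM with FP, all above its PBS libraries (2.54 ± 0.93), and an intergenic peak of the Erg-type channel gene Kcnh7 had 1.48, 0.932 and 5.48 CPM with FP, against 0.268, 1.4 and 0.279 CPM with PBS. An intergenic peak of Gria2 was at 0 in all 3 FP libraries, against 0, 0.53 and 0.372 CPM with PBS, and no fold is given for it.

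Between the agents at 0.75 h, FP minus IL2 gave 0 rises and 0 falls among members in edgeR (0% and 0% of all peaks). The members with an unadjusted p under 0.05 numbered 36 (5.63%, against 3.66% of all peaks), and DESeq2 called 0, against 0.00477% of all peaks. Without IL2 library 2 they numbered 57 (8.73%, against 5.05%). The difference was -0.28 at the Kcnq5 peak (95% interval -0.78 to 0.23) and -0.80 at the Cacna1e peak (-1.52 to -0.08), with adjusted p-values of 1.0, so a weaker effect of FP than of IL2 was not shown. The median difference was 0.12 over members and 0.02 over all peaks.

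At 16 h no member passed with IL2 over PBS (0 rises and 0 falls in edgeR, against 0% and 0% of all peaks). DESeq2 called 0 members, against 0.000953% of all peaks, and 29 members (4.48%, against 3.62% of all peaks) had an unadjusted p under 0.05, of which 28 were lower with IL2. Without IL2 library c3 the count was 44 (6.64%, against 5.58% of all peaks) and without PBS library c2 it was 17 (2.59%, against 3.29%). The Kcnq5 and Cacna1e peaks stood at 0.17 (95% interval -0.52 to 0.85) and 0.11 (-0.68 to 0.90). In a fit of all 31 libraries, the IL2 effect at 16 h minus that at 0.75 h was -1.64 ± 0.52 for Cacna1e (adjusted p 0.475 in edgeR) and -1.01 ± 0.39 for Kcnq5 (adjusted p 0.745), so a change of the effect with time was not called. The lowest p among members belonged to an intergenic peak of Kcnj3, a G-protein-gated inward rectifier, with 0.11, 0.128 and 0.338 CPM with IL2, against 1.19, 2.42 and 1.31 CPM with PBS (-3.01 ± 0.76, adjusted p 1.0). An intron peak of the calcium-activated channel gene Kcnn3 had 0.221, 0.0641 and 0.316 CPM with IL2, against 1.5, 0.939 and 1.45 CPM with PBS, and an intergenic peak of Kcnj8 had 1.51, 2.53 and 2.17 CPM with IL2, against 4, 6.37 and 4.17 CPM with PBS. IL2 and PBS libraries did not overlap at these 3 peaks. The higher members of lowest p all overlapped between groups: an intron peak of Kcnn4 had 6.66, 11.8 and 7.49 CPM with IL2, against 6.69, 3.76 and 5.38 CPM with PBS (0.70 ± 0.31). A small Kcnq5 intron peak had 1.99, 0 and 0.384 CPM with IL2, against 0, 0.335 and 0.097 CPM with PBS. An exon peak of Kcns1, a modifying potassium channel subunit, had 2.76, 1.03 and 1.31 CPM with IL2, against 1.19, 0.537 and 0.63 CPM with PBS.

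With FP at 16 h, 0 members rose and 0 fell in edgeR, against 0.114% and 0% of all peaks, and DESeq2 called 0 members, against 0.453%. At an unadjusted p under 0.05 there were 44 members (6.80%, against 5.31%), 7 higher and 37 lower. The Kcnq5 peak that rose with IL2 at 0.75 h had 7.11, 10.6 and 10.0 CPM with FP, 3.61, 5.32 and 6.84 CPM with IL2 and 4.16, 3.29 and 6.59 CPM with PBS. Its FP libraries lay above all others of that time, at a log2 fold change over PBS of 0.98 ± 0.33 (95% interval 0.29 to 1.66; adjusted p 0.573 in edgeR). The Cacna1e peak had 4.15, 4.55 and 6.69 CPM with FP, 2.65, 2.53 and 4.11 CPM with IL2 and 2.61, 2.01 and 3.98 CPM with PBS (0.84 ± 0.38, 0.05 to 1.62, adjusted p 0.908). Its FP libraries were all above PBS, by a margin smaller than the spread within either group. An exon peak of Cacna1d had 1.38, 1.54 and 3.89 CPM with FP, against 5.58, 6.78 and 4.36 CPM with PBS (-1.28 ± 0.41, adjusted p 0.477). A pair of overlapping intergenic peaks of Kcnk18, a background potassium channel also found in T cells, followed, the first with 1.04, 2.9 and 2.73 CPM with FP, against 5.15, 7.11 and 3.54 CPM with PBS (-1.23 ± 0.41). FP libraries lay below PBS libraries at these lower members. A peak at the 3' end of Kcnk13, a background potassium channel, had 0.938, 0.828 and 1.68 CPM with FP, against 0.396, 0.0671 and 0.097 CPM with PBS, without overlap.

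FP minus IL2 at 16 h gave 0 rises and 0 falls among members in edgeR, against 0.141% and 0% of all peaks, and 0 calls in DESeq2, against 0.459%. At an unadjusted p under 0.05 there were 29 members (4.48%, against 5.05%), and 54 without IL2 library c3 (8.14%, against 6.18%). The difference was 0.81 for the Kcnq5 peak (95% interval 0.13 to 1.48) and 0.73 for the Cacna1e peak (-0.05 to 1.501).

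At 16 h the members' medians were below those of all peaks with both agents, which share their PBS libraries. The median log2 fold change over tested members was -0.25 with IL2, against 0.00 over all peaks, and -0.20 with FP, against -0.02. Distal members had medians of -0.31 with IL2 and -0.28 with FP, against -0.04 and -0.05 over all distal peaks. Library totals averaged 33.4 M counts with IL2, 26.0 M with FP and 20.0 M with PBS. Without PBS library c2, the smallest of the time, the medians were -0.09 with IL2 and -0.10 with FP, and with the log2 library total as a covariate they were -0.08 and -0.17. Summed myeloid markers ran from 21.7 to 30.5 CPM with IL2, 23.7 to 34.1 CPM with FP and 19.5 to 23.4 CPM with PBS, and the sums of the other 7 cell types overlapped between each agent and PBS. The part of library size and of these markers in the medians was not tested further.

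At 72 h no member passed with FP over PBS (0 rises and 0 falls in edgeR, against 0% and 0% of all peaks). At an unadjusted p under 0.05 there were 32 members (5.00%, against 5.21% of all peaks), 15 higher and 17 lower. Leaving out single libraries moved the share of members and that of all peaks the same way: there were 113 members without PBS library 3 (17.3%, against 15.1% of all peaks), 52 without FP library 1 (7.84%, against 6.73%), 20 without PBS library 1 (3.01%, against 2.66%) and 12 without FP library 2 (1.84%, against 2.03%). DESeq2 called 1 member lower and 0 higher, against 0.131% of all peaks: an intron peak of Cacnb2, a calcium channel beta subunit. It had 5.99, 5.31 and 5.53 CPM with FP, against 14.5, 15.7 and 7.95 CPM with PBS, without overlap (-1.18 ± 0.28, adjusted p 0.930 in edgeR and 0.0409 in DESeq2). The 3 higher members of lowest p were promoter peaks. FP and PBS libraries did not overlap at any of them, which the choice by low p favours. A second start of Kcnab2, with the STAT motif, had 19.1, 22.3 and 22.8 CPM with FP, against 15.4, 13.1 and 15.5 CPM with PBS (0.54 ± 0.17, adjusted p 0.930 in edgeR). Kcng3 had 4.95, 4.67 and 4.09 CPM with FP, against 2.96, 1.99 and 2.36 CPM with PBS (0.90 ± 0.28). Cacna1c, an L-type calcium channel, had 10.9, 7.92 and 6.24 CPM with FP, against 3.62, 5.37 and 4.5 CPM with PBS (0.90 ± 0.28, adjusted p 0.930). The Kcnq5 intron peak that had the lowest p with FP at 0.75 h among lower peaks with the motif had 3.27, 2.87 and 2.18 CPM with FP, against 7.8, 5.78 and 4.39 CPM with PBS (-1.11 ± 0.31). An exon peak of Cacna2d1, an auxiliary calcium channel subunit, had 0.766, 0.503 and 0.413 CPM with FP, against 1.28, 3.43 and 1.2 CPM with PBS (-1.80 ± 0.55). Neither of these overlapped between groups. The called peaks of 0.75 h stood at -0.51 in Kcnq5 (95% interval -1.10 to 0.08) and 0.12 in Cacna1e (-0.49 to 0.73).

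At 168 h no member passed either (0 rises and 0 falls in edgeR, against 0% and 0% of all peaks; 0 in DESeq2, against 0.0439%). At an unadjusted p under 0.05 there were 34 members (5.11%, against 4.54% of all peaks), 6 higher and 28 lower with FP. Without FP library 2 there were 158 (24.8%, against 15.1% of all peaks) and without PBS library 4 there were 92 (13.7%, against 12.2%). Without FP library 1, 3 or 4 there were 19, 16 and 13 (2.95%, 2.50% and 2.02%, against 2.21%, 2.69% and 2.34%), and without PBS library 1 or 2 there were 20 and 22 (2.98% and 3.25%, against 2.61% and 2.53%). EdgeR called 0 members in each of these fits, beside 0 rises and 0 falls of all peaks. An intergenic peak of Kcng3 with the STAT motif had 7.91, 6.98, 9.59 and 8.66 CPM with FP, against 3.27, 3.62 and 5.67 CPM with PBS, without overlap (0.96 ± 0.29, adjusted p 0.899 in edgeR). An intergenic peak of Scn2a with the motif had 6.11, 8.65, 9.99 and 7.97 CPM with FP, against 20.7, 14.7 and 11 CPM with PBS, also without overlap (-0.90 ± 0.27). Cacna1d had an intron peak at 3.89, 5.95, 4.78 and 3.63 CPM with FP, against 2.08, 2.47 and 2.34 CPM with PBS (0.98 ± 0.33). An exon peak of Cacna2d4, another auxiliary subunit, had 12.9, 11, 8.93 and 9 CPM with FP, against 4.76, 6.55 and 7.77 CPM with PBS (0.69 ± 0.26). Both were without overlap. Kcnip3, a calcium-binding partner of potassium channels, had an intron peak at 0.152, 0.093, 0.0797 and 0.0736 CPM with FP, against 2.68, 0.463 and 0.57 CPM with PBS (-3.50 ± 0.90). A peak in an intron of Kcnd2, an A-type potassium channel, had 0.243, 0.651, 0.558 and 0.196 CPM with FP, against 2.82, 3.47 and 0.407 CPM with PBS, with overlap.

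The list's median was lowest at 168 h, at -0.35 over 665 members, against -0.01 over all peaks, and at -0.43 over distal members, against -0.11 over all distal peaks. The median over members varied with single libraries but stayed below 0 without any 1 of them. It was -0.11 without PBS library 1, -0.52 without FP library 2 and -0.56 without PBS library 4. Without FP library 1, 3 or 4 it was -0.26, -0.30 and -0.26, and without PBS library 2 it was -0.26. With the log2 library total as a covariate it was 0.06. FP libraries averaged 29.3 M counts and PBS libraries 18.2 M, and members took 0.174% to 0.216% of counts with FP and 0.190% to 0.228% with PBS. Summed neuronal marker peaks ran from 26.4 to 40.1 CPM with FP and from 38.2 to 44.6 CPM with PBS. B cell markers summed to 7.48 to 15.9 CPM with FP and 15.3 to 16.1 CPM with PBS (medians 10.4 and 15.7), and erythroid markers to 38.2 to 118 CPM with FP and 52.1 to 132 CPM with PBS (medians 47.2 and 102). FP and PBS libraries overlapped in the sums of all 8 marker lists. The part of these in the median was not tested.

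**Figure D5:**
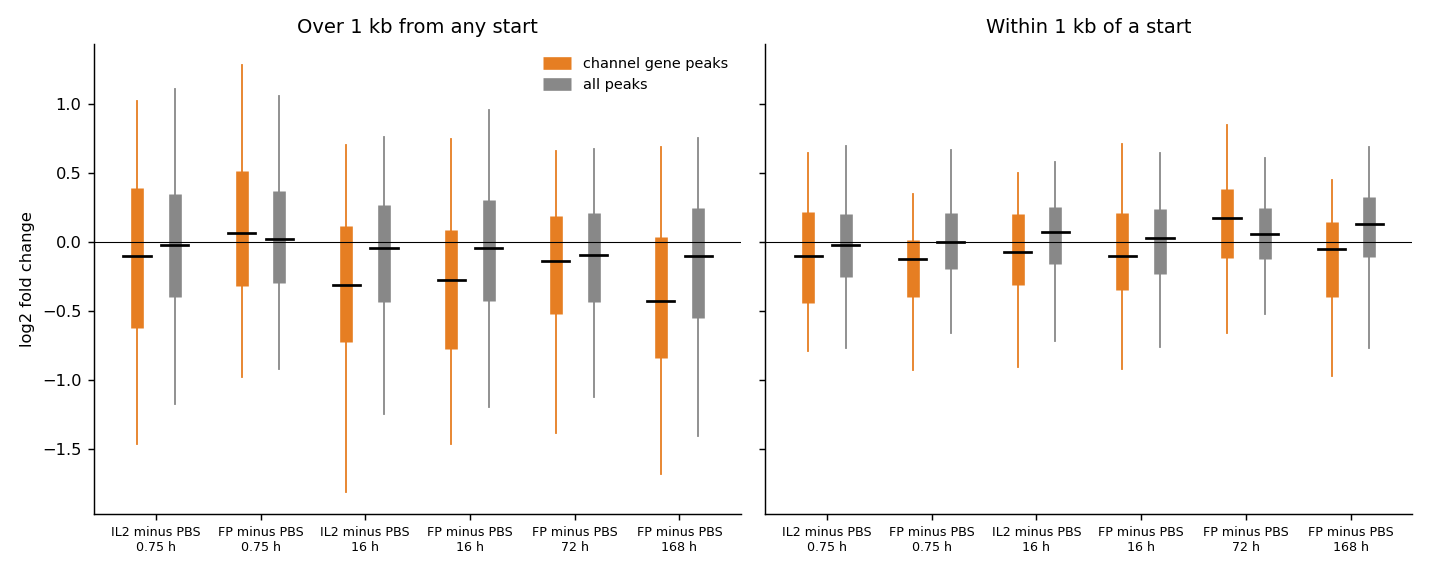
Log2 fold change over PBS for members and for all tested peaks in the 6 comparisons with PBS, split into distal peaks and peaks within 1 kb of a start; boxes run from the 25th to the 75th percentile, whiskers from the 5th to the 95th, and lines are medians. The distal members have medians of -0.31 and -0.28 at 16 h and -0.43 at 168 h, against -0.04, -0.05 and -0.11 for all distal peaks.

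The channels that lymphocytes are known to use gave no call, in comparisons where few of all peaks were called. In edgeR, 0.488% of all peaks rose with IL2 at 0.75 h, 0.00199% with FP at 0.75 h and 0.114% with FP at 16 h. In the other comparisons with PBS 0% rose, and DESeq2 called 1.05% of all peaks with IL2 at 0.75 h. The lack of calls therefore does not set these genes apart from all peaks. The 11 genes of this kind among the members (97 peaks) gave 0 rises and 0 falls in edgeR and 0 in DESeq2 in every comparison, with 2, 1, 4, 7, 3 and 6 peaks at an unadjusted p under 0.05 for IL2 and FP at 0.75 h, IL2 and FP at 16 h, and FP at 72 h and 168 h. In that order these were 2.11%, 1.05%, 4.17%, 7.29%, 3.12% and 6.25% of the peaks tested, against 5.74%, 3.15%, 3.62%, 5.31%, 5.21% and 4.54% of all peaks. Kcna3, the voltage-gated potassium channel of T cells, had 9.2, 13 and 12.8 CPM with IL2 at 0.75 h, against 9.31, 16.7 and 10.4 CPM with PBS, at its most accessible peak 1264 bp from the start (-0.05 ± 0.27). Kcnn4 had 14.6, 12.8 and 10.4 CPM with IL2, against 11.6, 15 and 10.4 CPM with PBS at its start (0.03 ± 0.26). With FP at 0.75 h the same peak had 7.08, 9.92 and 7.06 CPM, all below its PBS libraries (-0.62 ± 0.26, adjusted p 1.0 in edgeR). The start of Kcnk5, a background channel, stood at -0.11 ± 0.25 with IL2 at 0.75 h, and that of Kcnab2 had 44.9, 44.8 and 42.2 CPM with IL2, against 51.2, 52.5 and 33.6 CPM with PBS (-0.06 ± 0.19). IL2 and PBS libraries overlapped at all of these. A Cacnb4 intron peak with the STAT motif had 21.1, 15.2 and 12.9 CPM with IL2, against 9.84, 12 and 13.1 CPM with PBS (0.49 ± 0.24, adjusted p 0.884 in edgeR), with overlap. The most accessible peaks of Kcnk18, Cacna1f, Cacna1s and Cacnb3 stood at -0.25 ± 0.39, -0.15 ± 0.44, -0.12 ± 0.46 and 0.64 ± 0.64 with IL2 at 0.75 h. At the start of Kcnab2 at 168 h, 57, 56.7, 59.4 and 59.7 CPM with FP lay above 43.3, 40.5 and 52.4 CPM with PBS (0.36 ± 0.14, adjusted p 0.899). The most accessible peaks that list Cacna1c and Cacna1d are the starts of Dcp1b and Dcp1a, so their values (-0.28 ± 0.23 and 0.07 ± 0.21 with IL2 at 0.75 h) cannot be given to the channels.

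Genes of related function outside the members were set beside them. Of 18 genes for calcium entry and other lymphocyte channels (221 peaks), 1 peak rose with IL2 at 0.75 h (0.461% of 217 tested, against 0.488% of all peaks) and 14 had an unadjusted p under 0.05 (6.45%, against 5.74%). The risen peak lay in an intron of Itpr1, the receptor that releases calcium from the endoplasmic reticulum. It had 3.58, 3.89 and 3.86 CPM with IL2, against 0.8, 1.01 and 0.84 CPM with PBS (2.09 ± 0.41, adjusted p 0.0227 in edgeR), lay 9847 bp from the nearest start and held no TTCNNNGAA. Of 45 further neuronal channel and receptor genes, 34 had peaks (153), and all 26 genes for synaptic adhesion and scaffolds had peaks (396). In these 2 lists 0 peaks passed in any comparison in edgeR, with 12 and 25 at an unadjusted p under 0.05 for IL2 at 0.75 h (8.89% and 7.29%, against 5.74% of all peaks). DESeq2, which called 1.05% of all peaks with IL2 at 0.75 h and 0.459% in FP over IL2 at 16 h, called 3 peaks of the calcium entry list higher with IL2 at 0.75 h, 1 peak of the further neuronal list lower, and 1 higher and 3 lower of the synaptic list, which also had 1 peak higher in FP over IL2 at 16 h. Their medians at 168 h were -0.45 and -0.72, lower than the members' -0.35.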

How the data were processed

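Accessibility was measured by ATAC-seq in 31 libraries. Per the submitters' processing notes and series design, bwa-mem mapped the reads to GRCm38 and MACS2 2.1.2 called the peaks, which were kept by reproducibility between pseudo-replicates. For the read counter and duplicate filter, no setting was given in the sources used. Raw counts per peak, not normalized, were deposited. The first of the per-sample columns, recorded as an other unit because commas in gene names shift it, also holds whole-number counts as the authors deposited them. Per the labels' treatment protocol, every sample was taken at 0.75 h, so later times rest on the titles. The columns of 16 h libraries match a group but no single sample and are numbered c1 to c3. Technical replicates named in the labels are not separate in the table.

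Members were found by symbol. They, the gene lists and the tests were chosen with earlier results of these data known. Peaks were placed by GENCODE M21, and sequences were read from RefSeq's GRCm38 genome. All groups of a time were fitted over all peaks with edgeR 4.0.16 (R 4.3.3, limma 3.58.1): TMM factors, filterByExpr (minimum count 10, minimum total 15), quasi-likelihood F test, Benjamini-Hochberg adjustment and a threshold of 0.05. The filter left 639, 647, 640 and 665 members tested at 0.75, 16, 72 and 168 h. SE is the log2 fold change divided by the square root of F. CPM were computed from the counts and the library totals left by the filter, multiplied by the TMM factors. Values of treated and PBS libraries used the factors of their time. PBS levels used those of the fit of all 31 libraries. The biological coefficient of variation was 43.3%, 41.0%, 38.6% and 48.0%, and residual degrees of freedom were 6, 6, 4 and 5. Effects between times came from a fit of all 31 libraries. DESeq2 1.42.0 was an alternative. Scripts were tested on simulated data. Intervals used scipy 1.17.1, tables pandas 2.3.3 and numpy 2.4.6 in Python 3.11.15, and figures matplotlib 3.10.9.

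Named peaks were every called member, up to 25 per comparison; the 3 of lowest p in each direction where fewer than 4 were called; the start peaks of the 5 genes with the highest PBS CPM; the 5 genes with most peaks; and the most accessible peak of each lymphocyte channel gene. The Kcnip4 peak, the further motif sites and the neighbours of the called peaks were named after their values were seen. A few of the peaks that this rule names are not reported here.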

Additional observations from a re-analysis of the deposited data

How the results depend on the processing

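With IL2 at 0.75 h there were 2 calls among members, beside 490 rises and 9 falls of all peaks. They came to 1 when libraries were scaled by their totals alone (417 and 5 of all peaks), 0 with the log2 library total as a covariate (286 and 0), 1 with only the 2 groups compared (425 and 7), and 0 to 2 when each library was left out in turn: 0 without any single IL2 or PBS library (187 to 382 rises of all peaks), 1 without FP library 1 or 2 (399 and 440 rises) and 2 without FP library 3 (582 rises). They came to 2 under RLE size factors (485 rises), with no filter on low counts (508), in the fit of all 31 libraries (465) and in DESeq2 (1007). Merging overlapping peaks and redefining distal change no fit, and left the count at 2. The Cacna1e peak was called in 10 of 17 settings (log2 fold change 1.53 to 2.00, adjusted p 0.000539 to 0.190) and the Kcnq5 peak in 6 of 17 (1.11 to 1.25, adjusted p 0.000574 to 0.198). With FP at 72 h, 0 calls came to 1 with the library total as a covariate (a rise of a Cacna1c intron peak 11493 bp from a start, at a log2 fold change of 3.46 and an adjusted p of 0.0192, against 1.86 ± 1.07 and 0.930 without the covariate), beside 85 rises and 42 falls of all peaks, and to 1 in DESeq2 (a fall of the Cacnb2 peak), beside 70 rises and 67 falls. The other 6 comparisons gave 0 calls under each alternative run. Members with TTCNNNGAA numbered 31 instead of 65 when the motif had to lie within 100 bp of the peak midpoint. The median of distal members with it, -0.14 with IL2 at 0.75 h, was 0.053 with overlapping peaks counted once, where 10 Kcnq5 peaks become a single region. Of 556 values of 36 named results under alternatives, 537 kept direction and side of the threshold, 18 lost the call, 1 gained it and 0 changed sign. Some of these alternatives had fewer libraries, and the cause of the lost and gained calls was not tested.

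The replicate numbers of the titles were not taken to pair the libraries, since not every same-numbered pair deviated together from its group means with a correlation over 0.1. The correlations ran from 0.00416 to 0.303 at 0.75 h, where all were positive, from -0.24 to 0.601 at 72 h and from -0.254 to 0.453 at 168 h. With replicate number as a block, the IL2 calls at 0.75 h were 2 in number, while those of all peaks came to 941 rises and 42 falls, against 490 and 9 without it. FP over PBS gave 0 member calls at 0.75 h with the block, beside 127 rises and 2 falls of all peaks, against 2 and 0 without it. FP over PBS at 72 h and 168 h and FP over IL2 at 0.75 h also gave 0 member calls, beside 0 of all peaks. At 16 h no such fit was made, since the columns carry no numbers that match the titles. The median SE of a member's log2 fold change was 0.62 with IL2 at 0.75 h, and the 95% interval lay within a 2-fold change either way for 67 of 639 members, so for most members the interval held a 2-fold change in at least 1 direction.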
